A study of Mus musculus with 24 samples.

Results

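The genes of glucose breakdown through glycolysis and the pentose phosphate pathway were followed in sorted myeloid-derived suppressor cells (MDSCs), immature myeloid cells that accumulate in tumour-bearing mice. The set was chosen by gene symbol: 34 named enzymes, transporters and regulators were looked up in the deposited table of normalized read counts, and 34 of 34 were found among its 23479 genes. Spleens of mice carrying B16 melanoma tumours, a transplanted mouse line, gave monocytic (M) and polymorphonuclear (PMN) MDSCs, and total RNA of each sorted population was sequenced. Wild-type (WT) mice were C57BL/6 and the mice labelled IL-6KO were B6.129S2-Il6tm1Kopf/J, a constitutive knockout strain of the cytokine gene Il6. Within each genotype and cell type there were 3 libraries from untreated mice (UT) and 3 from mice lymphodepleted (LD) with cyclophosphamide and fludarabine, with spleens taken 7 days after treatment, which makes 8 groups and 24 libraries. All 8 groups carried the tumour. Age, sex and sort gates are absent from the labels used here. The design text counts 3 mice for each group but states no number for lymphodepleted IL-6KO mice, so p-values there may measure a spread that is partly technical. It also does not say whether the M-MDSC and PMN-MDSC libraries came from the same animals.

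Glycolysis splits glucose into pyruvate and, where pyruvate is reduced, lactate, yielding ATP and NADH. The pentose phosphate pathway branches off at glucose 6-phosphate, making NADPH in its oxidative arm and exchanging sugars with glycolysis through its non-oxidative arm. Neutrophils are known for few mitochondria and heavy reliance on glycolysis, and they use NADPH to feed the oxidase of the respiratory burst. Most steps have several isozymes encoded by separate genes, which differ in kinetics and in the tissues that use them.

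Depth was 7237462 to 11193088 reads in the 12 M-MDSC libraries and 3249647 to 9999731 in the 12 PMN-MDSC libraries. Il6 itself was counted at 0 to 7.20 in the 12 WT-labelled and 16.2 to 220 in the 12 KO-labelled libraries, the reverse of what the labels would give, and such counts do not tell whether the transcript is complete. Genotypes are therefore named as labels throughout, and every genotype direction is one between the libraries so labelled. Markers matched the sorted types: 8 monocyte markers summed to 41656 to 65016 in M-MDSC and 4694 to 13176 in PMN-MDSC libraries, and 11 neutrophil markers to 3903 to 54972 and 146676 to 643300. Other markers also differed by cell type: 8 red pulp macrophage markers summed to 407 to 464 in M-MDSC and 4026 to 5835 in PMN-MDSC libraries of untreated WT, without overlap over all 24 libraries, and 6 B cell markers to 279 to 345 and 854 to 988. Their part in the differences by cell type was not tested. Ly6g is not among the genes used here. In bulk RNA, fewer cells of a type and less RNA per cell cannot be told apart. The third lymphodepleted WT-labelled PMN-MDSC library stood apart, being the highest of its group in 20 of the 31 members tested in PMN-MDSCs, with the highest sums of neutrophil and cell cycle markers of any library. It is called the third WT LD PMN library below.

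Values are normalized read counts, that is reads divided by a library factor. Differences are log2 differences ± standard error from limma, and a gene is called changed when its p, adjusted by the Benjamini-Hochberg method over all genes tested, was under 0.05. To be tested, a gene needed 10 normalized counts in at least 3 of the fitted libraries. Of the 34 members, 32 were tested in M-MDSCs and between the cell types, and 31 in PMN-MDSCs. Eno1 (0 to 12.4) and Eno2 (0 to 11.1) failed the filter in every fit, and Aldoc (0 to 19.3 in PMN-MDSCs) failed it there.

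The members differed widely in level. Compared per kilobase of exon, Pkm, the pyruvate kinase that makes pyruvate, was the highest member in all 4 M-MDSC groups and in both untreated PMN-MDSC groups, at 2185 ± 236 (SD, n = 3) in untreated WT-labelled M-MDSCs and 5599 ± 728 in the matching PMN-MDSCs. Taldo1, the transaldolase of the non-oxidative pentose phosphate arm, came next with 1836 ± 219.9 and 5383 ± 351 per kilobase, within 2 SD of Pkm. Both stood above 99% of detected genes of those groups, at percentiles 99.53 and 99.34 in M-MDSCs and 99.82 and 99.80 in PMN-MDSCs. In lymphodepleted PMN-MDSCs the order changed. Adpgk, an ADP-dependent glucokinase of the endoplasmic reticulum that phosphorylates glucose at the expense of ADP, was the highest member per kilobase there, at 7686 ± 2113 with the WT and 5311 ± 2758 with the KO label. Pkm stood at 5031 ± 732 and 4668 ± 256 in those groups, within 2 SD of Adpgk.

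Between the cell types, the transporters Slc2a3 and Slc16a3, the entry enzymes Hk3 and Adpgk and the regulators Pfkfb3 and Pfkfb4 were higher in PMN-MDSCs, with or without lymphodepletion and with either genotype label. Of 32 members, 11 were lower in M-MDSCs in all 4 comparisons (untreated or lymphodepleted, WT or KO label): Slc2a1, Slc2a3, Slc16a3, Hk3, Adpgk, Gpi1, Pfkfb3, Pfkfb4, Pkm, Pgd and Taldo1. Under quantile normalization Gpi1 lost the call in all 4, Pkm in 3 and Taldo1 in lymphodepleted WT (adjusted p = 0.407). Over all 13457 genes tested, 15% were lower in all 4. The 4 comparisons share no library, but they come from 1 fit with a common estimate of each gene's spread. None of the 32 members was higher in all 4, against 10.3% of all genes. Within single comparisons, 13, 13, 13 and 11 members were lower in M-MDSCs and 2, 1, 2 and 3 higher, for untreated WT, lymphodepleted WT, untreated KO and lymphodepleted KO labels. The share of all genes called in either direction was 50.5%, 39.3%, 43.8% and 47.4% in the same order. Split by direction it was 28.3%, 19.9%, 23.6% and 23.6% lower and 22.2%, 19.4%, 20.3% and 23.8% higher, so the total share of members called is close to that of genes at large and more of the members' calls are lower. The members' median difference was −0.20, −0.49, −0.37 and −0.38, beside −0.076, 0.074, 0.047 and 0.049 over all genes. Normalized counts summed over a library ran from 6.04e+06 to 7.05e+06 in M-MDSCs and from 8.49e+06 to 1.21e+07 in PMN-MDSCs. The part of these totals in the differences was not tested. Without the third WT LD PMN library the members' median in lymphodepleted WT was −0.15. Under quantile normalization the members' median was 0.027 in untreated WT, −0.16 in lymphodepleted WT, 0.0025 in untreated KO and −0.047 in lymphodepleted KO, and the median of all genes in untreated WT moved to 0.078. In lymphodepleted WT cells the split was 2 higher and 8 lower under that scaling.

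**Figure D1:**
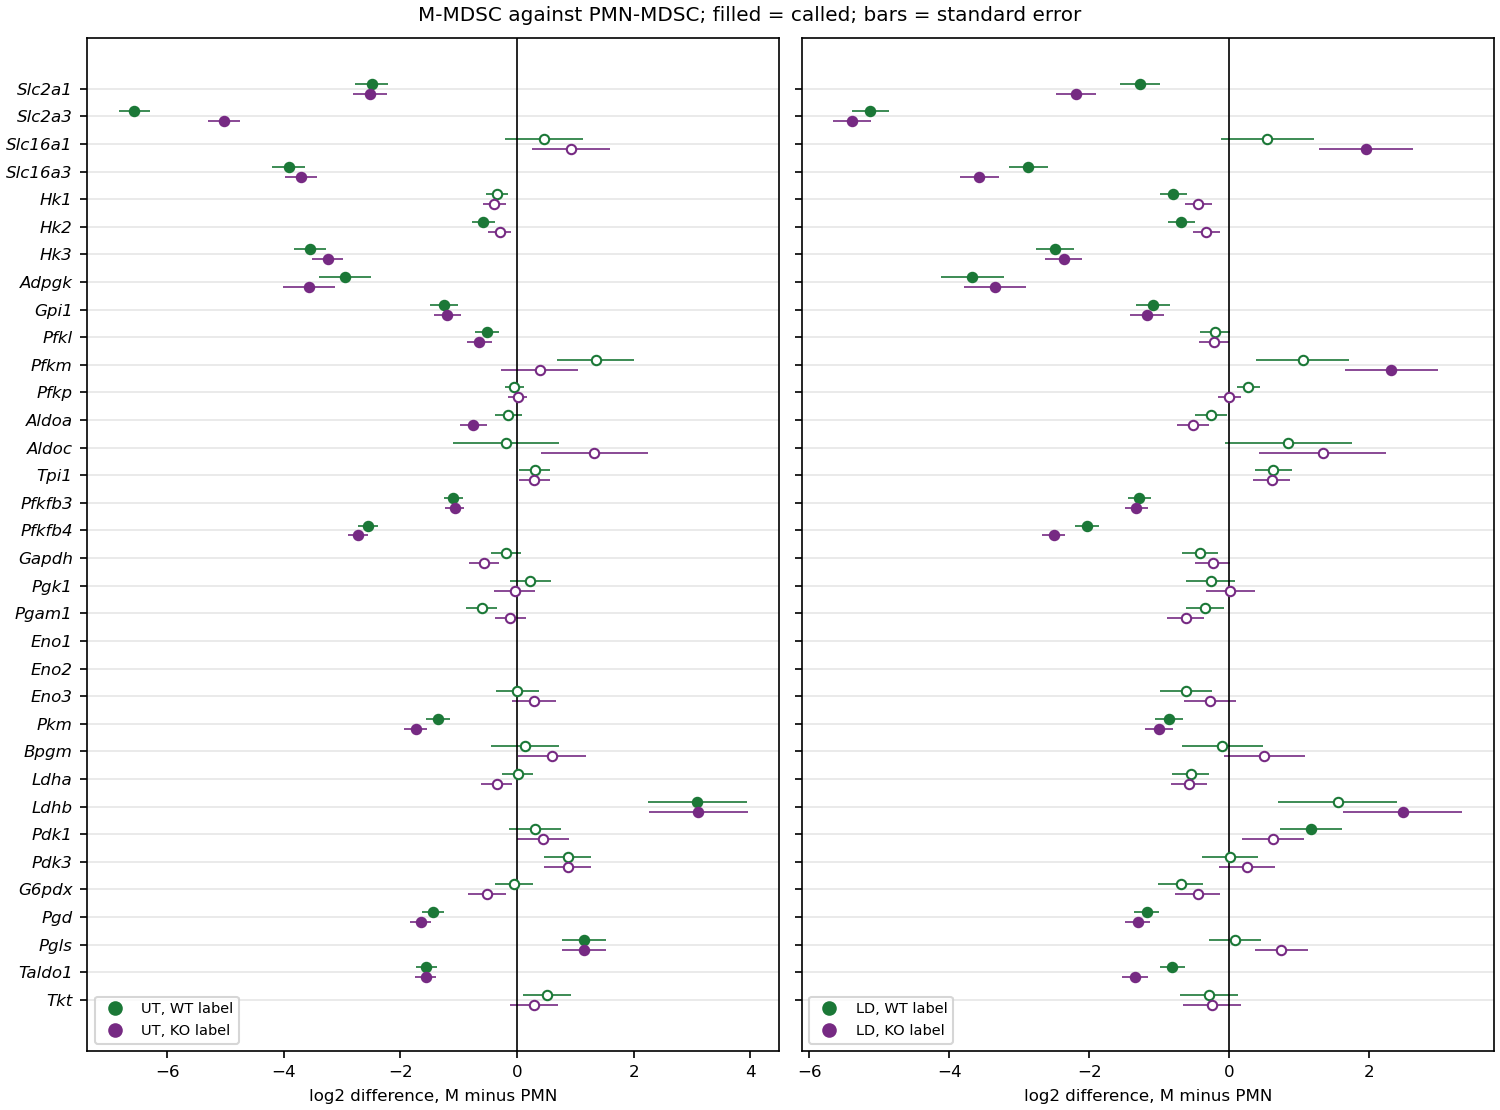
Log2 difference, M-MDSC minus PMN-MDSC, with standard error (bars) for each tested member, untreated on the left and lymphodepleted on the right, WT label green and KO label purple; filled points were called. Slc2a3 lies furthest left in all 4 comparisons (−6.56 to −5.03), while Pfkp, Pgk1 and Tkt have open points in all 4 and Ldhb lies to the right.

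The largest gap was in a glucose transporter. Slc2a3 (chromosome 6, 122727809 to 122802363, minus strand, GRCm38) encodes the high-affinity glucose transporter GLUT3. It was counted at 73.8, 66.6 and 72.7 in untreated WT-labelled M-MDSCs and at 7284, 7474 and 5765 in PMN-MDSCs. All 12 PMN-MDSC libraries (4855 to 8107, median 6553) lay far above all 12 M-MDSC libraries (66.6 to 266, median 162). The difference was −6.56 ± 0.268 (adjusted p = 7.41e-14) untreated and −5.13 ± 0.268 (adjusted p = 2.05e-12) lymphodepleted with the WT label, and −5.03 ± 0.268 and −5.39 ± 0.268 with the KO label. Slc2a1, the widely expressed transporter GLUT1, was counted at 225, 171 and 256 against 1407, 1040.3 and 1212. Its ranges did not overlap either (126 to 256, median 180.0, in M-MDSCs, 281 to 1407, median 844, in PMN-MDSCs), and the differences ran from −2.52 to −1.27. Slc16a3, the lactate exporter MCT4, was counted at 539, 475 and 523 against 7159, 7102 and 9154, a difference of −3.92 ± 0.276 (adjusted p = 1.01e-10). Every PMN-MDSC library (2091 to 9154, median 5749.5) again exceeded every M-MDSC library (354 to 574, median 468). Slc16a1, the related lactate transporter MCT1, was low in both types, at 25.8 to 112 (median 80) in M-MDSCs and 7.42 to 177 (median 31.3) in PMN-MDSCs. It was higher in M-MDSCs only in the lymphodepleted KO-labelled comparison, at 1.95 ± 0.667 (adjusted p = 0.0193), and the call was lost in 4 of 6 refits, those without the second or the third lymphodepleted KO-labelled library of either cell type.

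At the first phosphorylation, Hk3, the hexokinase of myeloid cells, was counted at 769, 923 and 844 in untreated WT-labelled M-MDSCs and at 8394, 9788 and 11757 in PMN-MDSCs. No M-MDSC library (590.1 to 2521, median 1278) reached the lowest PMN-MDSC library (5166 to 12015, median 9026), and the difference was −3.55 ± 0.268 (adjusted p = 2.63e-10) untreated and −2.49 ± 0.268 (adjusted p = 1.32e-07) lymphodepleted. Hk2, the inducible hexokinase, and Hk1, the widely expressed one, differed far less, from −0.68 to −0.30 and from −0.80 to −0.35. Hk2 was called with the WT label (0.0189 untreated, 0.00875 lymphodepleted, as adjusted p from limma) and not with the KO label, and Hk1 was called in lymphodepleted WT cells, which was lost under quantile normalization (adjusted p = 0.114). Hk2 changed sign in untreated WT under quantile normalization, to 0.11. Its untreated call was also lost in 3 of 6 refits with 1 library left out, with edgeR and without the 3 shallowest PMN-MDSC libraries. Its lymphodepleted call was lost under quantile normalization, without those 3 libraries and when only the groups compared were fitted. It was also lost without the third WT LD PMN library. Adpgk was counted at 377, 299.7 and 371 against 1902, 2635 and 3922 in untreated WT-labelled cells, a difference of −2.95 ± 0.449 (adjusted p = 1.01e-05). Its overall ranges met (218 to 2680.2, median 545, and 1694 to 24905, median 6744) and its level also moved with treatment, described further on. Within each of the 4 comparisons its groups did not overlap.

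Promoter sequences of members on which these results turn are shown for reference, as the 250 bases before the start site in RefSeq's table for GRCm38.p6 (mm10), written 5′ to 3′ along the gene. Slc2a1, Slc16a3, Hk3 and Adpgk were high in PMN-MDSCs, and Pgk1 and Ldha, a kinase of lower glycolysis and a lactate dehydrogenase, were not called between the cell types by limma, although DESeq2 called Ldha lower in lymphodepleted WT M-MDSCs. Capitals mark ACGTG on either strand, the core of the element bound by hypoxia-inducible factors, and in Hk3 and Adpgk also GAGGAAG, a purine-rich word of the kind bound by the myeloid factor PU.1. The Slc16a3, Hk3 and Ldha starts lie inside the outermost bounds of the gene.
Slc2a1 (chr4:119108495-119108744, plus strand): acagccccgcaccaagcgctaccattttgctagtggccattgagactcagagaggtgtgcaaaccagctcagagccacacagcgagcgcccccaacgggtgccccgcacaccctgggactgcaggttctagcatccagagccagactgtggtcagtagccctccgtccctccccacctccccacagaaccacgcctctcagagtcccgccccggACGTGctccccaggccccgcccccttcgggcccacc
Slc16a3 (chr11:120948817-120949066, plus strand): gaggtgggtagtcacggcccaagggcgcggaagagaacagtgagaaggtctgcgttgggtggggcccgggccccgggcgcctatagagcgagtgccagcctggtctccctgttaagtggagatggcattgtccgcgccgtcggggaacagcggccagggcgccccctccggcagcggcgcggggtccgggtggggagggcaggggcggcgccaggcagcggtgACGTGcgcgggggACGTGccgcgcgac
Hk3 (chr13:55021386-55021635, minus strand): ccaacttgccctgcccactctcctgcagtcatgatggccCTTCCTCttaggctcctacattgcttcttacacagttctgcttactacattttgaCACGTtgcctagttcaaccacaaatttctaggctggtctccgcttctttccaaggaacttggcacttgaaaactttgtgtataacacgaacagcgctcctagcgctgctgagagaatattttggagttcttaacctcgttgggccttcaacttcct
Adpgk (chr9:59291322-59291571, plus strand): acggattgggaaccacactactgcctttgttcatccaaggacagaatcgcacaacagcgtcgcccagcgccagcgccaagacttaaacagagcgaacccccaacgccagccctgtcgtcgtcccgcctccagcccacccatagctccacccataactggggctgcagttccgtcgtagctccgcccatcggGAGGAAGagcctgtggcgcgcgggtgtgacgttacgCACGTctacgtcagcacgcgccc
Pgk1 (chrX:106186850-106187099, plus strand): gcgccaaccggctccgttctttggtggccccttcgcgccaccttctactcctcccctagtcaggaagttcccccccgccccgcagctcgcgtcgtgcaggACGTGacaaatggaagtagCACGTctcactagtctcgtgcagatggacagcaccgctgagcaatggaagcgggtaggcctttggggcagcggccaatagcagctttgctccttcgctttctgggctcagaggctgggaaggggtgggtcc
Ldha (chr7:46845554-46845803, plus strand): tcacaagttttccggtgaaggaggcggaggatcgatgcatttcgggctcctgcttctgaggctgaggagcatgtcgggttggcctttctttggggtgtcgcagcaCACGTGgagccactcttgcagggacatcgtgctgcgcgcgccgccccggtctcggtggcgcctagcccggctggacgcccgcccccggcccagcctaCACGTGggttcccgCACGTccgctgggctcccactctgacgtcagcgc
In windows that run from 250 bases before to 50 after a start site, read on both strands, ACGTG stood in 15 of the 33 members matched by symbol (45.5%) and in 19.6% of 27025 promoters. Slc2a3 is the member without an entry. Ldha held 5 matches, with each of its 2 CACGTG sites, which read the same on both strands, counted once per strand. Pgk1 and Slc16a3 held 2 each, and Slc2a1, Hk3 and Adpgk held 1 each. The palindrome CACGTG, which overlaps ACGTG, stood in 9.09% of members and 7.24% of all promoters, GAGGAAG in 15.2% and 13.5%, and TTGCNNAA, a C/EBP-type word, in 9.09% and 10.7%. ACGTG was thus present in promoters of some members that differed by cell type and in that of Pgk1, which no setting called. It was absent from the windows of Gpi1, Pfkfb4, Pkm, Pgd and Taldo1, which were also higher in PMN-MDSCs. These are matches of letters and no measure of binding.

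The enzymes that set fructose 2,6-bisphosphate, the activator of phosphofructokinase, followed the transporters. Pfkfb4 was counted at 691, 731 and 659 in untreated WT-labelled M-MDSCs and at 4029.6, 4272 and 3963 in PMN-MDSCs, a difference of −2.56 ± 0.169 (adjusted p = 3.91e-11). Pfkfb3 was counted at 618, 503 and 584 and 1374, 1138 and 1134, a difference of −1.09 ± 0.165 (adjusted p = 8.85e-06). In both genes all 12 libraries of one cell type lay apart from all 12 of the other. The phosphofructokinases themselves did not follow: Pfkp, the platelet-type subunit, differed by −0.045 to 0.27, and limma called it in none of the 4 comparisons, though under quantile normalization it was called in lymphodepleted WT and untreated KO. Pfkl, the liver-type subunit, was lower in M-MDSCs when untreated only, at −0.51 ± 0.213 with the WT and −0.65 ± 0.213 with the KO label, and lost the call in 5 and 3 of 6 refits with 1 library left out. The WT call was also lost with edgeR, DESeq2, quantile normalization, no filter and without the 3 shallowest PMN-MDSC libraries, and the KO call with edgeR. Pfkm, the muscle-type subunit, was low (41.6 to 89, median 62.5, in M-MDSCs and 6.43 to 142, median 24.2, in PMN-MDSCs) and was higher in M-MDSCs with the KO label under lymphodepletion, at 2.32 ± 0.662 (adjusted p = 0.00605).

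Most other steps of glycolysis differed less. Gpi1, glucose 6-phosphate isomerase, was counted at 1495, 1738 and 1413 against 3499, 3539 and 4033 in untreated WT-labelled cells, a difference of −1.25 ± 0.238 (adjusted p = 0.000145). Pkm was counted at 6193, 5844 and 4999 against 13263, 13669 and 16724, a difference of −1.36 ± 0.2 (adjusted p = 7.01e-06). Both lay apart over all 24 libraries. Tpi1, Gapdh, Pgk1, Pgam1, Eno3, Bpgm and Ldha were not called by limma in any of the 4, with differences between −0.62 and 0.63. Some other settings called Tpi1, Gapdh, Pgam1 or Ldha, each in 2 of the 4 comparisons, among them DESeq2 for Ldha in lymphodepleted WT cells, and none called Pgk1, Eno3 or Bpgm in any. Aldoa, the main aldolase, was called in untreated KO-labelled cells alone (−0.75 ± 0.231, adjusted p = 0.0116), and quantile normalization turned it to 0.028. Ldhb, the lactate dehydrogenase subunit of oxidative tissues, went the other way: it was counted at 91.9, 123 and 98.1 in untreated WT-labelled M-MDSCs and at 4.89, 7.2 and 37 in PMN-MDSCs, a difference of 3.09 ± 0.85 (adjusted p = 0.00442). It was also higher in M-MDSCs with the KO label (3.11 ± 0.85 untreated, 2.48 ± 0.85 lymphodepleted). The lymphodepleted KO call was lost without the third M-MDSC or the first PMN-MDSC library (adjusted p = 0.0619 and 0.197) and under quantile normalization (adjusted p = 0.105). Ldhb was not called in lymphodepleted WT cells (1.55 ± 0.85, adjusted p = 0.155), where the PMN-MDSC libraries spread over 9.63, 30.6 and 101. Pdk1, a kinase that shuts pyruvate dehydrogenase, was called higher in M-MDSCs in lymphodepleted WT cells (1.17 ± 0.446, adjusted p = 0.0408), which was lost with edgeR, DESeq2 and 5 of 6 single-library omissions. Pdk3, its relative, was called by limma in none, and in both untreated comparisons when only the groups compared were fitted.

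In the pentose phosphate pathway the arms were split. Pgd, 6-phosphogluconate dehydrogenase of the oxidative arm, was counted at 1211, 1741 and 1415 in M-MDSCs and at 3752, 4195 and 3809 in PMN-MDSCs (untreated, WT label), a difference of −1.44 ± 0.181 (adjusted p = 7.98e-07). G6pdx, the glucose 6-phosphate dehydrogenase that opens the arm, was called by limma in none of the 4 comparisons (−0.70 to −0.048). DESeq2 called it lower in lymphodepleted WT cells, as did limma without the first lymphodepleted WT-labelled PMN-MDSC library. Pgls, the lactonase between them, was higher in M-MDSCs when untreated, at 1.14 ± 0.376 (adjusted p = 0.0146) with the WT and 1.14 ± 0.376 (adjusted p = 0.0168) with the KO label, and its calls were lost in 2 and 4 of 6 refits with 1 library left out and under quantile normalization. In the non-oxidative arm Taldo1 was counted at 2484, 2814 and 2216 against 7834, 7315 and 6878, a difference of −1.56 ± 0.181 (adjusted p = 2.47e-07), and all 12 PMN-MDSC libraries exceeded all 12 M-MDSC libraries. Tkt, transketolase, was called by limma in none (−0.29 to 0.52), and under quantile normalization in untreated WT. 

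Isozyme use, measured as the share of a family's normalized count per kilobase, also differed between the cell types. Slc2a3 made up 21.5% ± 2.69 (SD, n = 3) of the glucose transporter pair in untreated WT-labelled M-MDSCs and 82.1% ± 3.08 in PMN-MDSCs. Its share in untreated KO-labelled M-MDSCs was 46.3% ± 4.27. Hk3 made up 37.9% ± 4.2 of the 3 hexokinases in untreated WT-labelled M-MDSCs, 52% ± 3.7 after lymphodepletion, and 83.4% ± 2.24 in untreated PMN-MDSCs. In KO-labelled M-MDSCs its share was 39% ± 9.85 untreated and 54.8% ± 7.06 lymphodepleted. Pfkfb4 took 65.9% ± 3.3 of its pair in M-MDSCs and 84.2% ± 1.72 in PMN-MDSCs. Ldha took 84.2% ± 2.33 and 96.9% ± 3.64 of the lactate dehydrogenases. Slc16a3 exceeded Slc16a1 in every group, with a share from 79.2% ± 5 to 99.7% ± 0.0812. Among the phosphofructokinases of untreated WT-labelled cells, Pfkp took 62.8% ± 4.79 in M-MDSCs and 58.3% ± 4.54 in PMN-MDSCs, Pfkl 30.7% ± 3.81 and 39.5% ± 4.8, and Pfkm 6.45% ± 1.04 and 2.24% ± 0.574. Pfkl's share with the KO label was 29.9% ± 2.35 and 40.7% ± 3.68, untreated, ranges that do not overlap. Shares were described and not tested. Without division by length, 91 of 168 shares moved by more than 1 SD.

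**Figure D2:**
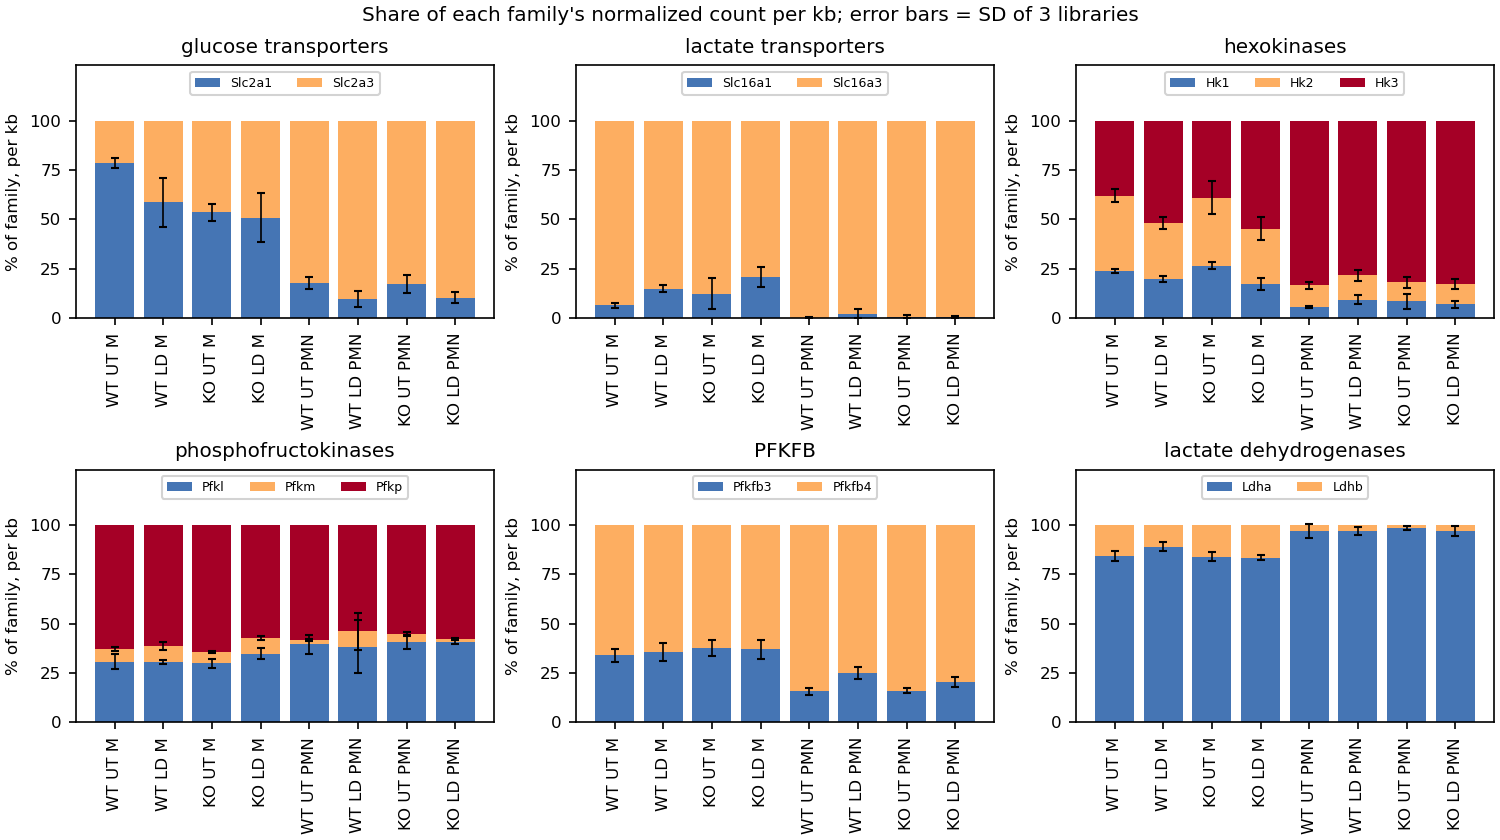
Share of each family's normalized count per kilobase (percent, bars stacked to 100) in the 8 groups, with the SD of 3 libraries at the top of each segment but the last. Slc2a3 and Hk3 fill most of their families in PMN-MDSCs and less in M-MDSCs; Pfkp is the largest phosphofructokinase share in all 8 groups.

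The next question was how lymphodepletion changed these genes in M-MDSCs. With the WT label, 11 of 32 members rose and 1 fell, a share to be set beside 9.52% of all 11570 genes called higher, 8.82% called lower and 18.3% called either way. The genes that rose spanned the pathway: Slc2a3 and Slc16a1 among the transporters, Hk3 and Adpgk at entry, Gpi1, Aldoa and Tpi1 in the upper part, Gapdh, Pgk1 and Pgam1 in the lower part, and Ldha at its end. Eno3, the muscle-type enolase, fell. The members' median was 0.30, beside −0.066 over all genes. The 20 members not called ranged from −0.26 for Pdk1 to 0.55 for Aldoc. Limma called no pentose phosphate member, with differences from −0.12 for Taldo1 to 0.50 for Tkt, while DESeq2 called Tkt, and limma without the second lymphodepleted library called Pgd and Tkt. With the KO label 3 members rose, Hk3, Adpgk and Tpi1, and 0 fell, where 6.11% of all genes were called higher, 5.52% lower and 11.6% either way. edgeR called 3 higher and 1 lower and DESeq2 5 higher and 1 lower, the lower one being Eno3. Tpi1 was lost in 4 of 6 refits with 1 library left out. The 3 genes called by limma rose with both labels, as did 4.56% of all genes.

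**Figure D3:**
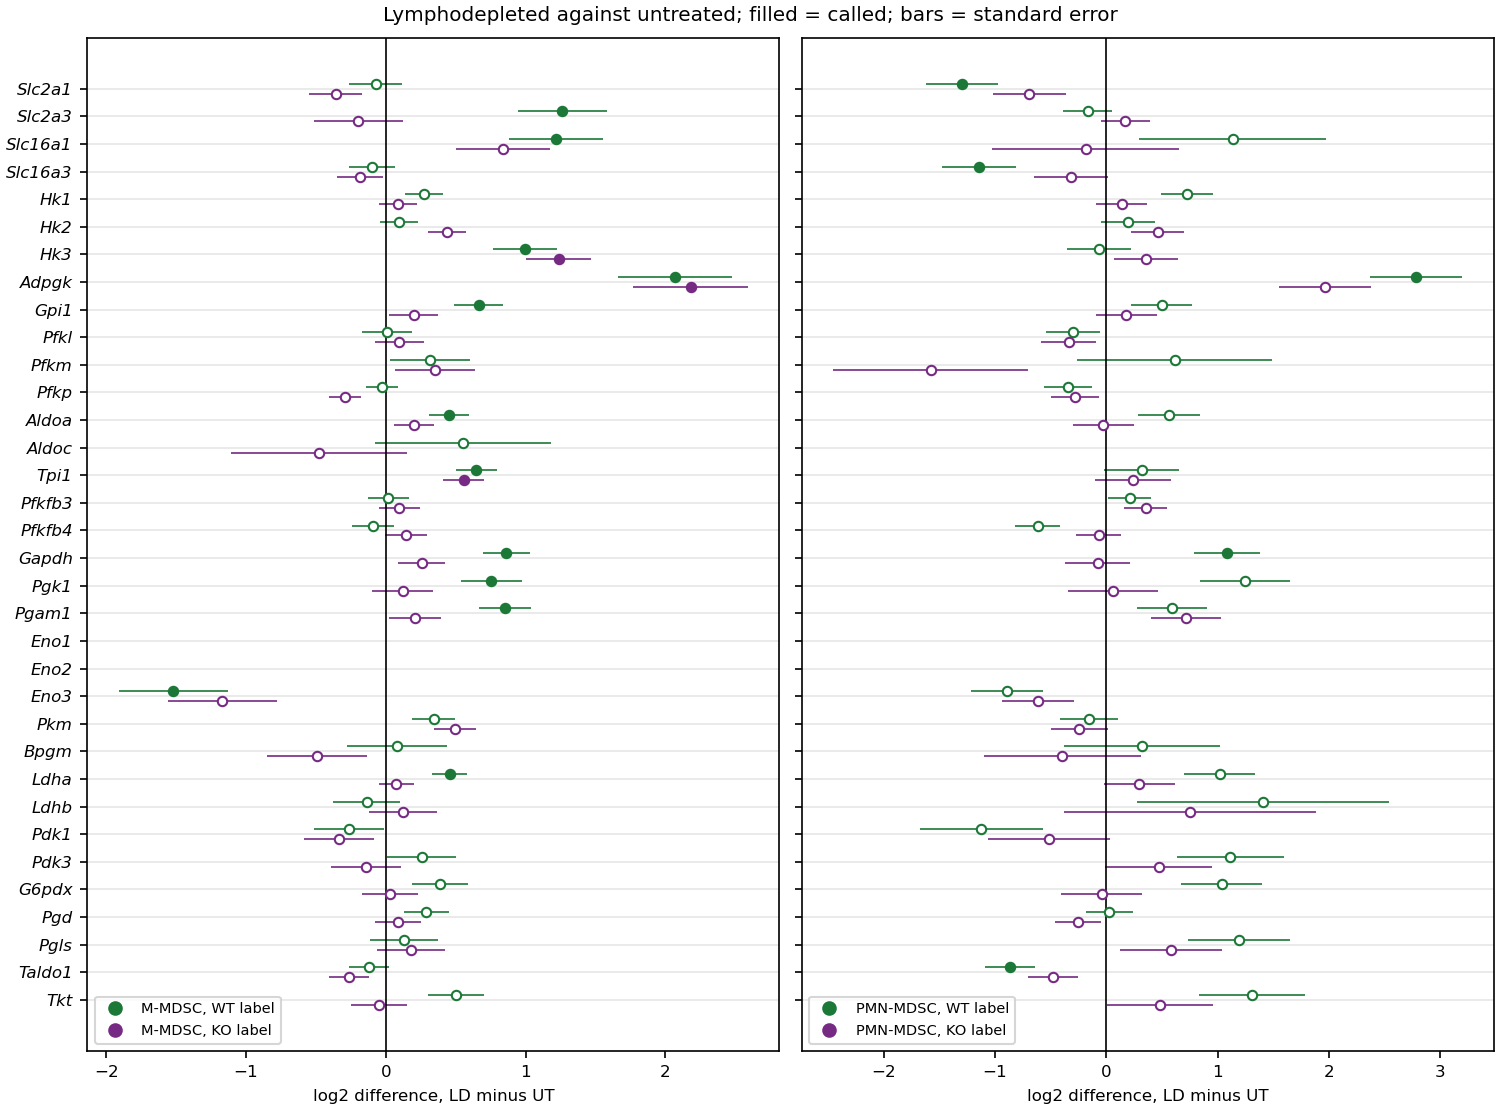
Log2 difference, lymphodepleted minus untreated, with standard error (bars) for each tested member in M-MDSCs (left) and PMN-MDSCs (right), WT label green and KO label purple; filled points were called. Adpgk lies furthest right in both cell types, at 2.07 and 2.18 in M-MDSCs and 2.79 and 1.96 in PMN-MDSCs, and Eno3 lies left of 0 in all 4 comparisons.

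Adpgk moved most. It was counted at 377, 299.7 and 371 in untreated and 1529, 887 and 2286 in lymphodepleted M-MDSCs with the WT label, and at 218, 249.7 and 329 untreated and 713, 2680.2 and 879.8 lymphodepleted with the KO label. Every lymphodepleted library stood above every untreated one, and the second KO-labelled lymphodepleted library was the highest of the 12. The differences were 2.07 ± 0.41 (adjusted p = 0.00337) and 2.18 ± 0.41 (adjusted p = 0.00494), kept in every refit with 1 library left out. Hk3 was counted at 769, 923 and 844 untreated and 1706, 1438 and 1936 lymphodepleted with the WT label, and at 590.1, 685 and 1118 untreated and 1632, 2521 and 1441 lymphodepleted with the KO label. Its groups did not overlap with either label, and the differences were 0.995 ± 0.232 (adjusted p = 0.00936) and 1.24 ± 0.232 (adjusted p = 0.00486). Slc2a3 was counted at 73.8, 66.6 and 72.7 untreated and 220.2, 98.3 and 234 lymphodepleted with the WT label, a difference of 1.26 ± 0.317 (adjusted p = 0.0143). In KO-labelled cells it was 187, 194 and 189.7 untreated and 124, 266 and 138 lymphodepleted, overlapping groups with a difference of −0.20 ± 0.317 (adjusted p = 0.739). The untreated KO-labelled libraries lay inside the range of the lymphodepleted WT-labelled ones.

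In the trunk of the pathway the rises were smaller. Gapdh, which oxidizes glyceraldehyde 3-phosphate, was counted at 857, 903 and 793 untreated and 1805, 1269 and 1609 lymphodepleted with the WT label, a difference of 0.86 ± 0.169 (adjusted p = 0.00307). Its KO-labelled values were 1209, 987 and 1071 untreated and 1045, 1254 and 1664 lymphodepleted, which overlap (0.26 ± 0.169, adjusted p = 0.364). Tpi1, triose phosphate isomerase, was counted at 282, 289.8 and 260.4 untreated and 455, 353 and 509 lymphodepleted with the WT label and at 279.7, 322 and 317 untreated and 441, 421 and 492 lymphodepleted with the KO label. Neither pair overlapped, and the differences were 0.65 ± 0.146 (adjusted p = 0.00773) and 0.56 ± 0.146 (adjusted p = 0.0243). Pgam1, phosphoglycerate mutase, was counted at 164, 129 and 119.8 untreated and 302, 211 and 236 lymphodepleted with the WT label, without overlap, a difference of 0.85 ± 0.188 (adjusted p = 0.00685). Gpi1 rose from 1495, 1738 and 1413 to 2779.9, 1804 and 2919, a difference of 0.67 ± 0.176 (adjusted p = 0.0185), and Ldha, which reduces pyruvate to lactate, from 848, 803 and 778 to 1128, 1119 and 1089, a difference of 0.46 ± 0.125 (adjusted p = 0.0214). The 3 lymphodepleted values of Ldha lay within a narrow band above all untreated ones. The 3 other called members, Slc16a1, Pgk1 and Aldoa, rose by 1.22, 0.75 and 0.45. Eno3 was counted at 247, 209.8 and 201 untreated and 112, 62.7 and 61.2 lymphodepleted with the WT label, all lower after lymphodepletion (−1.52 ± 0.39, adjusted p = 0.0159), and at 561, 237 and 154 untreated and 164, 85.9 and 125 lymphodepleted with the KO label, where the groups overlap (−1.17 ± 0.39, adjusted p = 0.0683).

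The WT-labelled count moved between refits. Without the third lymphodepleted WT-labelled M-MDSC library, 5 members were called, and without the first or the second untreated one 7 each. The share of all genes called fell as well, from 18.3% to 10.1%, 11.84% and 12.01% in the same order. Without the second lymphodepleted library, 13 members and 21.4% of all genes were called. The members' losses therefore cannot be told from a general loss of calls with fewer libraries. The fit of all 24 libraries, which omitted no library, called 5 members and 6.06% of all genes. Adpgk, Gapdh and Hk3 remained called in every alternative run, and Pgam1 and Tpi1 in every refit with 1 library left out.

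**Figure D4:**
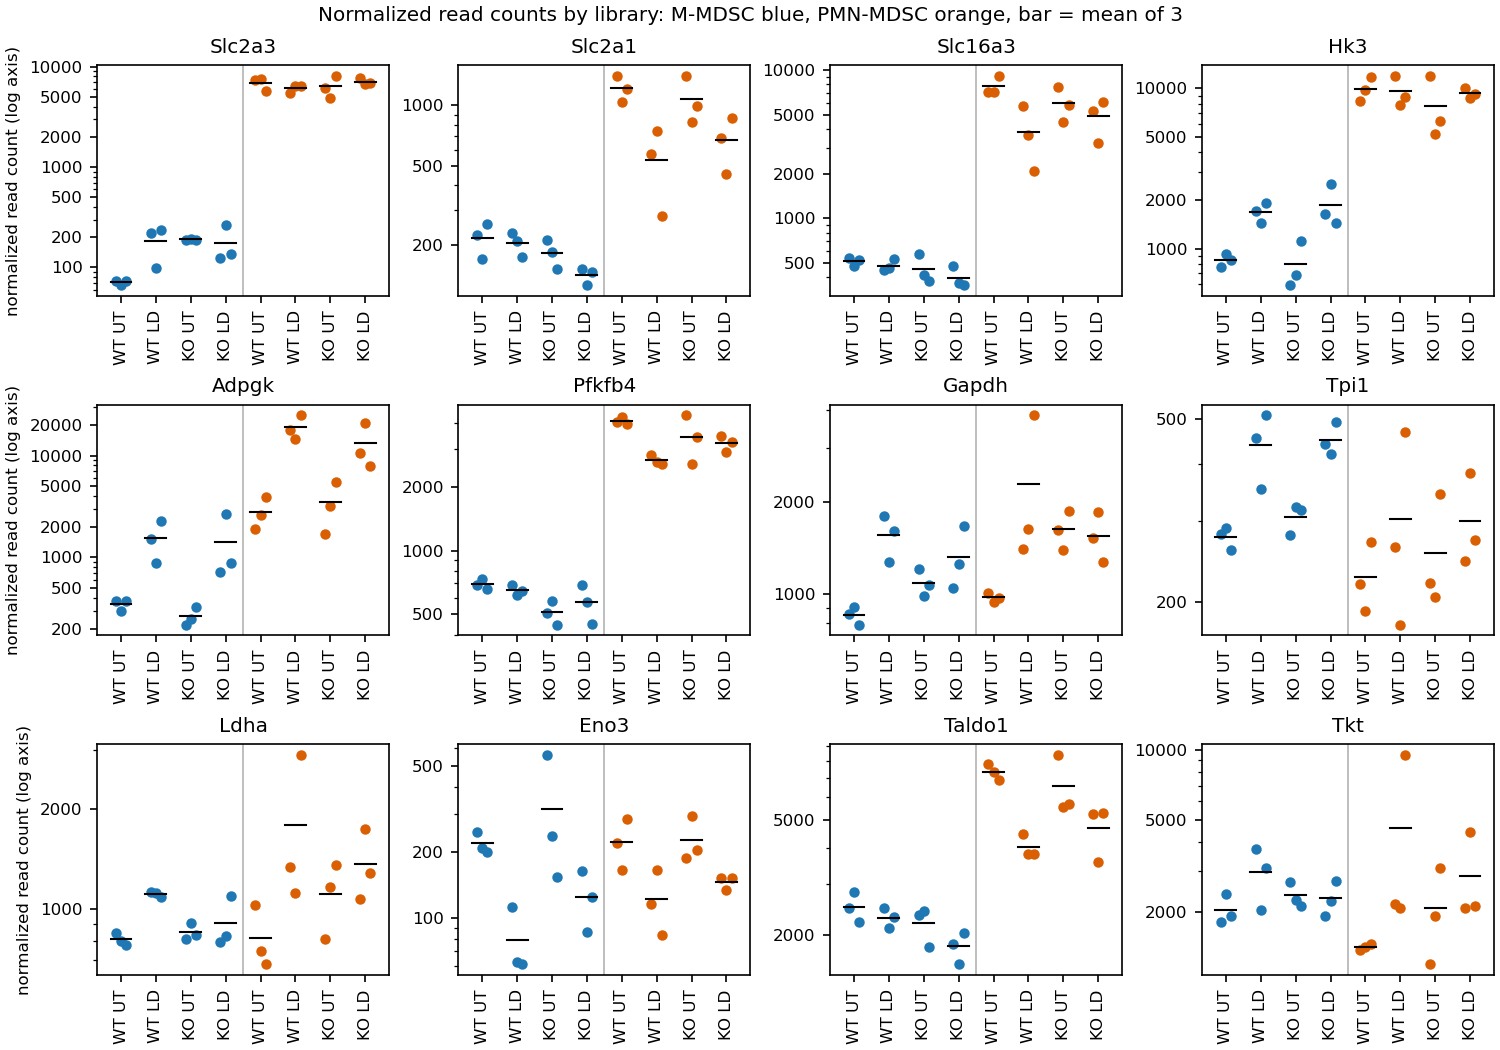
Normalized read count (log axis) of 12 members in each library (points) with the group mean (bar), M-MDSCs blue on the left and PMN-MDSCs orange on the right of each panel. Slc2a3, Slc16a3, Hk3 and Pfkfb4 separate the cell types without overlap; Adpgk is higher in all lymphodepleted libraries of each cell type than in the untreated ones of the same label.

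Neutrophil, progenitor and dividing-cell transcripts moved in the same libraries. In WT-labelled M-MDSCs the 11 neutrophil markers summed to 3973 to 4186 untreated and 12712 to 54972 lymphodepleted, and with the KO label to 3903 to 5252 and 9813 to 36648. The 6 primary granule markers summed to 47.1 to 134 untreated and 4306 to 15306 lymphodepleted with the WT label, and to 236 to 7723 and 5144 to 13334 with the KO label. The 13 cell cycle markers summed to 1217 to 1341 and 16168 to 27207 with the WT label, and to 1365 to 8604 and 12154 to 27122 with the KO label. None of these markers was at 0 in any M-MDSC group. In that comparison 7 of 11 neutrophil, 6 of 6 primary granule and 13 of 13 cell cycle markers rose with the WT label, and 6, 0 and 12 with the KO label. The second lymphodepleted WT-labelled M-MDSC library had the lowest neutrophil sum of its group and also the lowest Adpgk, Hk3, Slc2a3, Gapdh, Tpi1 and Gpi1. Its primary granule, cell cycle and monocyte sums were the lowest as well, and it was lowest in 16 of 32 members and highest in 6. Among lymphodepleted KO-labelled M-MDSCs, the first library had the lowest neutrophil sum and the lowest Adpgk, Slc2a3, Gapdh and Gpi1. Hk3 was lowest there in the third library, and Tpi1 in the second, which had the highest neutrophil sum. Adpgk, Hk3, Slc2a3 and Gpi1 are members that PMN-MDSCs carry at a higher level. The other members lower in M-MDSCs in all 4 comparisons of cell type were not called in this one by the main limma fit. Among them Slc16a3, Slc2a1, Pfkfb4 and Taldo1 had WT-labelled means of 513, 217, 694 and 2505 untreated and 480, 205, 651 and 2300 lymphodepleted. Those of Pfkfb3, Pkm and Pgd were 568, 5679 and 1456 untreated and 578, 7187 and 1790 lymphodepleted. Summed monocyte markers overlapped, at 48217 to 62172 and 51192 to 64169. The part of these other transcripts in the members' rise was not tested.

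**Figure D5:**
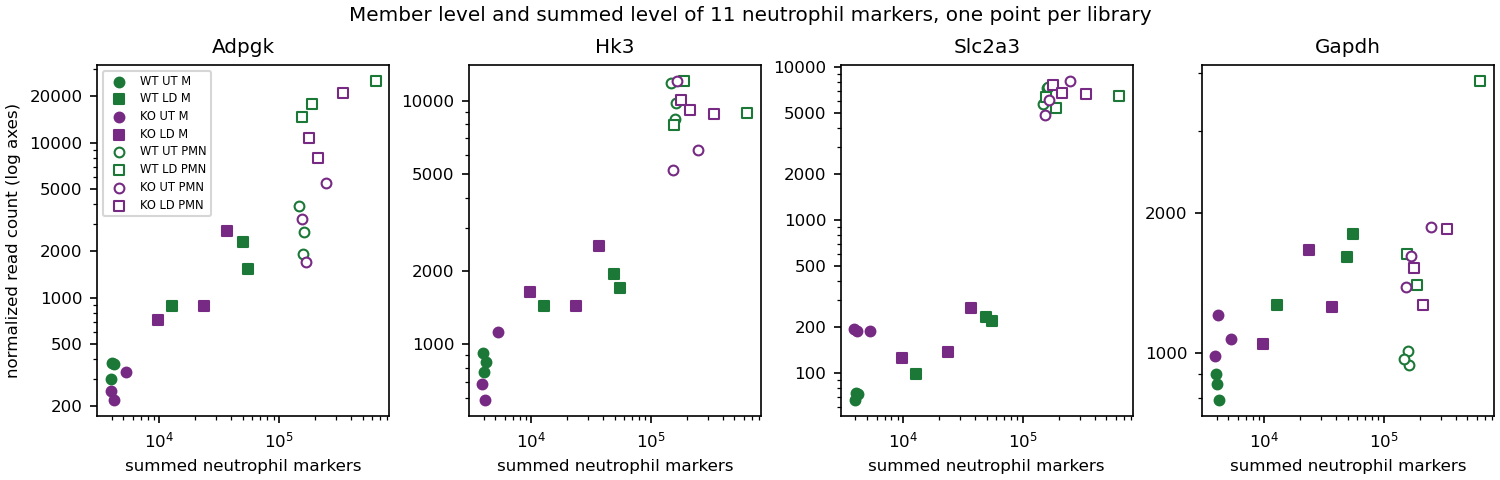
Normalized read count of 4 members (vertical, log axis) against the summed level of 11 neutrophil markers (horizontal, log axis), 1 point per library; filled symbols are M-MDSCs, open ones PMN-MDSCs, circles untreated, squares lymphodepleted, WT label green, KO label purple. Among M-MDSC libraries the lymphodepleted squares lie to the right of and, for Adpgk and Hk3, above the untreated circles of the same label; the untreated KO-labelled circles of Slc2a3 (187 to 194) lie at low marker sums.

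In PMN-MDSCs lymphodepletion raised Adpgk and Gapdh and lowered Slc2a1, Slc16a3 and Taldo1 in WT-labelled cells. With that label 2 of 31 members rose and 3 fell, where 4.14% of all 12971 genes were called higher, 6.73% lower and 10.9% either way. Adpgk was counted at 1902, 2635 and 3922 untreated and 17662, 14706 and 24905 lymphodepleted, groups far apart, a difference of 2.79 ± 0.413 (adjusted p = 0.00638). With the KO label it was 1694, 3223 and 5508 untreated and 10644, 20954 and 7980.3 lymphodepleted, again without overlap, but the difference of 1.96 ± 0.413 missed the threshold (adjusted p = 0.0804). DESeq2, the fit of all 24 libraries and the fit without the third untreated KO-labelled library called it. Across the 2 cell types and 2 labels, all 12 lymphodepleted libraries stood above the untreated libraries of their own type and label.

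The 3 members that fell are among the 11 that were lower in M-MDSCs than in PMN-MDSCs. Slc2a1 was counted at 1407, 1040.3 and 1212 untreated and 571, 744 and 281 lymphodepleted with the WT label, a difference of −1.30 ± 0.326 (adjusted p = 0.0252). Slc16a3 was counted at 7159, 7102 and 9154 untreated and 5685, 3638 and 2091 lymphodepleted, a difference of −1.14 ± 0.331 (adjusted p = 0.0396). Neither pair overlapped, and the third WT LD PMN library was the lowest for both. Taldo1 was counted at 7834, 7315 and 6878 untreated and 4475, 3817 and 3822 lymphodepleted, groups that do not overlap, a difference of −0.86 ± 0.224 (adjusted p = 0.0279). Pfkfb4 was lower in all 3 lymphodepleted libraries (2812, 2618 and 2573 against 4029.6, 4272 and 3963) and just missed the threshold (−0.62 ± 0.201, adjusted p = 0.0591). The KO-labelled differences were −0.69 ± 0.326 for Slc2a1, −0.32 ± 0.331 for Slc16a3, −0.48 ± 0.224 for Taldo1 and −0.069 ± 0.201 for Pfkfb4, none of them called. Slc2a3, the main glucose transporter of these cells, overlapped between treatments with either label (−0.17 ± 0.221 and 0.17 ± 0.221).

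Gapdh was counted at 1008, 943 and 971 untreated and 1399.6, 1632 and 3847 lymphodepleted in WT-labelled PMN-MDSCs, a difference of 1.08 ± 0.295 (adjusted p = 0.0327). The groups did not overlap, but the third WT LD PMN library lay far above its pair. The same library gave 9526 for Tkt, 5024 for G6pdx, 2911 for Ldha and 985 for Pgk1, where its pair gave 2173 and 2089 for Tkt, 1538 and 1811 for G6pdx, 1332 and 1118 for Ldha, and 430.2 and 305 for Pgk1. For all 4 genes the 3 lymphodepleted libraries exceeded the 3 untreated ones, and limma on the 12 PMN-MDSC libraries called none of them (adjusted p from 0.051 for Ldha to 0.0831 for Tkt). edgeR, DESeq2 and the limma fit of all 24 libraries each called all 4 higher. Other transcripts moved in all 3 lymphodepleted libraries of that comparison. Cell cycle markers summed to 1539 to 1829.9 untreated and 8876 to 28688 lymphodepleted, with 10 of 13 called higher. Primary granule markers summed to 51.4 to 104 and 629 to 2545 (4 of 6 higher), B cell markers to 854 to 988 and 34.9 to 122 (6 of 6 lower) and red pulp macrophage markers to 4026 to 5835 and 2416 to 3021 (1 of 8 lower). Neutrophil markers summed to 146676 to 162270 and 156602 to 643300, which overlap. Their part in the members' changes was not tested. In the third WT LD PMN library the neutrophil markers summed to 643300 and the cell cycle markers to 28688, against 189856 and 156602, and 8876 and 12367, in its pair. With this library left out Adpgk alone was called, as it was without any 1 of the 3 untreated WT-labelled libraries. The loss of calls therefore does not by itself give this library's part in the members' values. Without the first lymphodepleted library, the shallowest of all, 11 members were called, and without the second 9. The shares of all genes called that are given above belong to the main fit and not to these refits.

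Calls in WT-labelled PMN-MDSCs also differed between settings. The median of all genes lay at −0.20 in the limma fit and near 0 in other settings (−0.0046 for edgeR, −0.021 for DESeq2, −0.051 for quantile normalization). The members' median was 0.32 in the limma fit, 0.62 with edgeR, 0.60 with DESeq2 and 0.51 under quantile normalization, and 0.15 in limma without the third WT LD PMN library. In those settings the split of calls differed: 4 members rose and 0 fell under quantile normalization, 7 rose and 2 fell with edgeR, and 9 rose and 4 fell with DESeq2. Since edgeR and DESeq2 differ from limma in model as well as in scaling, the part of scaling was not tested. The shares of all genes called that are given above belong to the main limma fit and not to these settings. The falls of Slc2a1 and Taldo1 were called by limma, edgeR and DESeq2 but not under quantile normalization, and that of Slc16a3 by limma and DESeq2. In KO-labelled PMN-MDSCs limma called 0 of 31 members, with 4 at an unadjusted p under 0.05, edgeR 0 and DESeq2 1 (Adpgk), where 0.224% of all genes were called (0% higher, 0.224% lower).

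Calls between the genotype labels were few among the members, which with 3 libraries a group does not show that their levels were alike. Slc2a3 was the only member called, in untreated M-MDSCs, at 73.8, 66.6 and 72.7 with the WT and 187, 194 and 189.7 with the KO label. The groups were tight and apart, and the difference was 1.41 ± 0.317 (adjusted p = 0.0318), in a comparison where 4.03% of all genes were called (2.24% higher, 1.79% lower). In total 5 of 6 refits with 1 library left out ended the call, at adjusted p up to 0.106. NK cell markers were also higher in those untreated KO-labelled libraries, summing to 6131 to 9088 against 1546 to 1823 with 7 of 7 called, and T cell markers, of which 4 of 6 were called, to 768 to 1236 against 195 to 305. Their part in the Slc2a3 difference was not tested. After lymphodepletion Slc2a3 was not called between the labels in M-MDSCs (−0.051 ± 0.317, adjusted p = 0.973).

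No other comparison of the labels gave a call among the members. In lymphodepleted M-MDSCs limma called 0 of 32 (4 at an unadjusted p under 0.05; 0.207% of all genes were called, 0.156% higher and 0.0519% lower), in untreated PMN-MDSCs 0 of 31 (2 unadjusted; 0.00771% of all genes, 0.00771% higher and 0% lower) and in lymphodepleted PMN-MDSCs 0 of 31 (1 unadjusted; 0.0154%, 0.00771% and 0.00771%). edgeR and DESeq2 called 0 in each. The largest difference in lymphodepleted M-MDSCs was 0.67 ± 0.39 for Eno3. The test of whether lymphodepletion acted differently with the 2 labels called 0 of 32 members in M-MDSCs (4 unadjusted; 0.00864% of all genes, 0% higher and 0.00864% lower) and 0 of 31 in PMN-MDSCs (1 unadjusted; 0%), and edgeR and DESeq2 called 0 as well. In PMN-MDSCs the median of all genes was 0.10 with limma and −0.027 with edgeR. Its estimate was −1.46 ± 0.449 for Slc2a3, −0.61 ± 0.238 for Gapdh, −0.64 ± 0.265 for Pgam1 and 0.11 ± 0.58 for Adpgk in M-MDSCs, the last near 0. More members called with the WT than with the KO label in M-MDSCs is therefore not shown to be a difference between the labels.

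Whether lymphodepletion acted differently in the 2 cell types was tested in the same way. With the WT label 0 of 32 members were called (6 unadjusted; 0.788% of all genes, 0.587% higher and 0.201% lower), edgeR called 0 and DESeq2 called Slc2a3. The median of all genes was 0.16 in the limma fit and 0.0045 with edgeR. The estimate, M-MDSC response minus PMN-MDSC response, was 1.43 ± 0.379 (adjusted p = 0.071) for Slc2a3, 1.22 ± 0.404 (adjusted p = 0.148) for Slc2a1, 1.06 ± 0.378 (adjusted p = 0.184) for Hk3 and 1.05 ± 0.39 (adjusted p = 0.208) for Slc16a3. Leaving out the second lymphodepleted M-MDSC library brought Slc2a3 past the threshold, and leaving out the first lymphodepleted PMN-MDSC library did so for Slc16a3. With the KO label 0 were called by limma (2 unadjusted; 0.0966% of all genes, 0.0372% higher and 0.0594% lower), edgeR and DESeq2. For Adpgk the estimates were −0.72 ± 0.635 and 0.22 ± 0.635.

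Some members have near copies in the genome, which affects what a read count over them can mean. As a measure, each member's GENCODE transcripts were cut into words of 50 bases, and words that also occur in transcripts of another gene were counted. The share was 78.3% for Gapdh, 68% for Pgk1, 57.2% for Eno1, 41.5% for Pgam1, 36.3% for Pkm, 27% for Ldhb and 25.3% for Gpi1. Levels of these genes, and isozyme shares that include them, are uncertain if reads with several matches were dropped or split, which the sources used here do not give. Eno1, the usual enolase of non-muscle, non-neural cells, was listed at 0 in 3 of 3 untreated WT-labelled M-MDSC libraries and reached 12.4 at most, so Eno3 was the only enolase with more than trace counts. Most of Eno1's shared words are in Eno1b, a near copy. The share was 0 for 16 members: Slc2a3, Slc16a1, Slc16a3, Hk2, Hk3, Adpgk, Pfkm, Aldoc, Pfkfb4, Eno3, Bpgm, Pdk1, Pdk3, Pgd, Pgls and Tkt. Overlap with another gene on the opposite strand was largest for Pfkp, whose exons share 748 bases with Pitrm1.

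Genes of the same pathways outside the 34 were read from lists chosen with them. Their counts stand beside 22.2% of all genes called higher and 28.3% lower in untreated WT-labelled M-MDSCs against PMN-MDSCs, and 9.52% and 4.14% called higher with lymphodepletion in WT-labelled M-MDSCs and PMN-MDSCs. Of 22 other glycolysis and lactate genes (isozymes, transporters and helpers), 14 were tested between the cell types, and 6 were higher and 4 lower in untreated WT-labelled M-MDSCs. Galm, which interconverts the forms of glucose, was lower (−2.80 ± 0.336, adjusted p = 3.83e-07), as was the transporter gene Slc2a6 (−2.39 ± 0.414, adjusted p = 5.13e-05), while Bsg, the chaperone of lactate transporters, was higher (1.09 ± 0.267, adjusted p = 0.00179). Of 9 other pentose phosphate genes tested, 3 were higher and 0 lower in the same comparison: Dera (3.31 ± 0.657, adjusted p = 0.000233), Rpe (1.03 ± 0.35, adjusted p = 0.0179) and Prps2 (1.72 ± 0.618, adjusted p = 0.0242). With lymphodepletion and the WT label, Rpia, ribose 5-phosphate isomerase, was the 1 of 9 that rose in M-MDSCs (1.14 ± 0.182, adjusted p = 0.000695), and Rpe and Rpia rose in PMN-MDSCs (1.47 ± 0.437, adjusted p = 0.0428, and 1.01 ± 0.3, adjusted p = 0.0431). Pfkfb1 was the 1 of 10 other glycolysis genes that rose in those M-MDSCs (2.12 ± 0.593, adjusted p = 0.0239). Of 11 pyruvate entry genes, 7 were higher and 1 lower in untreated WT-labelled M-MDSCs. Pdp1, a phosphatase that activates pyruvate dehydrogenase, was higher (3.36 ± 0.718, adjusted p = 0.000503), while Mpc1, a subunit of the mitochondrial pyruvate carrier, was lower (−1.76 ± 0.364, adjusted p = 0.000359). The list medians were −0.61, 0.84 and 0.92, beside −0.076 over all genes.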

How the data were processed

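Sequencing of total RNA covered 24 libraries, 3 in each of 8 groups read from the sample titles; per the labels' protocols, tumours exceeded 25 mm2, sort purity exceeded 99%, and libraries were made from 100 ng of RNA with a kit that depletes ribosomal RNA. The deposited table gives, per gene and library, a signal value that the authors made by dividing read counts by a library factor, as the values themselves show: all values were whole multiples of 1 step (tolerance 0.001), and whole reads were recovered from them. STAR 2.5.3a, HTSeq 0.6.1, DESeq2 and mm10 are named in the submitters' processing notes; their annotation, strand setting and rule for multiple matches were not found in the labels.

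The main test was limma 3.58.1 (R 4.3.3, trended prior) on log2(value + 1), for genes with 10 or more in at least 3 fitted libraries, two-sided, adjusted over all genes. This scale understates changes of low genes. Fits took the 12 libraries of a cell type, or all 24 for comparisons of cell types. The script was tested on simulated data. The members, 16 further lists (185 entries, 178 in the table) and the tests were chosen with earlier results of these data known. Values in every library are given for called members, at most 8 per direction and comparison with the smallest adjusted p, for up to 3 called genes of each other list as differences, and the rest as ranges. Alternatives were pseudocounts of 0.5 and 5, no filter, quantile normalization, edgeR 4.0.16 and DESeq2 1.42.0 on recovered reads, a replicate block, another fit scope, omission of the 3 shallowest PMN-MDSC libraries and of each library in turn. Lengths are merged exons of GENCODE vM21 basic. Promoters are RefSeq's, GRCm38.p6, matched by symbol for 33 members. No protein sequences were used here.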

Additional observations from a re-analysis of the deposited data

How the results depend on the processing

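Members were called in 79 pairs of gene and comparison, and 1169 refits of these pairs were made. The direction reversed in 2 of them, both under quantile normalization: Hk2 in untreated WT (0.11) and Aldoa in untreated KO (0.028), each M-MDSC against PMN-MDSC. The threshold was missed in 130. The members called with 1 library left out ranged from 5 to 13 for lymphodepletion in WT-labelled M-MDSCs, 2 to 6 in KO-labelled M-MDSCs, 1 to 11 in WT-labelled PMN-MDSCs and 0 to 1 in KO-labelled PMN-MDSCs, 0 to 1 for KO against WT label in untreated M-MDSCs, and 0 to 1 for the cell type by lymphodepletion test with the WT label. Other settings that moved a count by more than 1.5 times were the fit of all 24 libraries (5 in WT-labelled M-MDSCs, 13 in WT-labelled and 1 in KO-labelled PMN-MDSCs), a pseudocount of 5 and quantile normalization (5 and 5 in KO-labelled M-MDSCs), edgeR (9 in WT-labelled PMN-MDSCs) and DESeq2 (6 in KO-labelled M-MDSCs, 13 in WT-labelled and 1 in KO-labelled PMN-MDSCs, 1 in the cell type by lymphodepletion test with the WT label). The causes were not tested, apart from fewer libraries in the omissions. Of the calls between cell types, 10 of 15, 8 of 14, 11 of 15 and 10 of 14 held in every alternative run (untreated WT, lymphodepleted WT, untreated KO, lymphodepleted KO).

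Replicate numbers are shared between groups. Over all pairs of groups, same-numbered libraries did not as a rule deviate together (median correlation 0.00289 over 84 pairs, over 0.1 in 12). Of 24 libraries, 6 correlated best with their own number. Most of these pairs join mice of different genotype label or treatment. The median therefore cannot tell whether M-MDSC and PMN-MDSC libraries of a group share animals. The main fit did not take the numbers as pairs. With the number as a replicate block the count in untreated M-MDSCs, KO against WT label, went from 1 to 0, and no other count moved by over 1.5 times. Depth limits the low members: Aldoc, Eno1 and Eno2 had under 20 normalized counts in every library, and nothing is said of their change in PMN-MDSCs.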

Other observations

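Glycogen, the store from which glucose phosphate is released, was represented by a list of 17 genes. Of 16 glycogen genes tested, 10 were lower and 5 higher in untreated WT-labelled M-MDSCs than in PMN-MDSCs, with a median of −0.92. Pygl, the liver-type glycogen phosphorylase, differed by −3.12 ± 0.163 (adjusted p = 6.49e-13), and the targeting subunits of the glycogen phosphatase Ppp1r3b and Ppp1r3d by −4.12 ± 0.265 (adjusted p = 2.62e-11) and −4.90 ± 0.359 (adjusted p = 1.76e-10). Lymphodepletion raised Gys1, glycogen synthase, in M-MDSCs of both labels (1.91 ± 0.322, adjusted p = 0.00111, and 1.26 ± 0.322, adjusted p = 0.0215) and in WT-labelled PMN-MDSCs (1.71 ± 0.424, adjusted p = 0.0244). Of all genes, 50.5% were called in the first comparison, and 18.3%, 11.6% and 10.9% in the other 3.

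Targets of hypoxia-inducible factors outside glycolysis went in both directions with lymphodepletion. Of all genes, 9.52% rose and 8.82% fell in WT-labelled M-MDSCs, and 4.14% and 6.73% in WT-labelled PMN-MDSCs. In WT-labelled M-MDSCs 3 of 16 rose and 2 fell (median −0.023), among them Bhlhe40, a transcription factor, which fell (−1.16 ± 0.233, adjusted p = 0.00371), and Ero1l, an oxidase of the endoplasmic reticulum, which rose (1.14 ± 0.248, adjusted p = 0.00638). In WT-labelled PMN-MDSCs 1 of 15 rose and 4 fell (median −0.46), led by Ankrd37 (−2.15 ± 0.521, adjusted p = 0.0222) and Bnip3 (−1.56 ± 0.401, adjusted p = 0.0276). Between the cell types Vegfa was lower in M-MDSCs (−4.50 ± 0.378, adjusted p = 1.6e-09 in untreated WT). Among 15 regulators of glycolytic genes, Txnip, which restrains glucose uptake, was lower in M-MDSCs (−2.52 ± 0.311, adjusted p = 5.88e-07 in untreated WT) and fell with lymphodepletion in WT-labelled PMN-MDSCs (−1.49 ± 0.363, adjusted p = 0.0232), as did its relative Arrdc4 (−1.35 ± 0.383, adjusted p = 0.0361). Cebpe, a granulocyte factor that the primary granule markers also hold, rose with lymphodepletion in both WT-labelled cell types (4.85 ± 0.642, adjusted p = 0.000212, in M-MDSCs, 2.93 ± 0.876, adjusted p = 0.0439 in PMN-MDSCs). With the KO label it was called higher in neither.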
